A study of Mus musculus with 24 samples.

Results

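The genes described here make cholesterol and fatty acids, sense sterols, or move cholesterol within and out of the cell. They were taken as 31 listed genes, each through the probe sets annotated to that gene alone. Of the 31 genes, 30 had such probe sets, 68 of the 45101 on the array, and Acat2 was not analysed here. They fall into 5 roles: mevalonate steps (6 measured of 7 listed), squalene and sterol steps (10 of 10), sterol sensing and sterol transfer (6 of 6), cholesterol export (3 of 3) and fatty acid synthesis (5 of 5). The list was drawn up by function, but with earlier results of these data known.

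The series held 24 Affymetrix expression arrays of primary cortical neurons from E18 mice, grown for 1 week before treatment. The groups were BDNF at 50 ng per ml with IBET858 at 1 µM, IBET858 alone at 1 µM, BDNF alone at 50 ng per ml, and the solvent DMSO, each for 2 h and for 12 h, with 3 arrays per group. BDNF is a neurotrophin that acts through the receptor TrkB, and IBET858 inhibits the BET proteins, which read acetylated histones and help to start transcription. The labels give replicate numbers but do not state that each is its own culture; the p-values then reflect only array-to-array spread, which may be technical. Mouse strain, sex and any treatment against glia are not given in the labels.

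Cholesterol is built from acetyl-CoA through mevalonate, farnesyl diphosphate, squalene and lanosterol. Its enzymes are switched on together by SREBP2, the product of Srebf2, while SREBP1, from Srebf1, acts more on fatty acid genes. When sterols are plentiful, the INSIG proteins hold SREBP and its escort SCAP in the endoplasmic reticulum. Insig1 is itself an SREBP target. Excess sterol activates the nuclear receptor LXR, which raises Abca1, Abcg1 and Srebf1. In the brain, cholesterol is made locally, and astrocytes are a main source of the lipoprotein carrier Apoe and of the cholesterol given to neurons.

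Values are centred log2 intensities: the median of each probe set over the 24 arrays was 0. They show differences between arrays and not how strongly a gene was expressed, so a value below 0 means lower than on the middle array. For the same reason the labelled cell type could not be checked by the level of its markers. The value of a gene is the mean of its probe sets. Changes are log2 differences with the standard error of a limma model over all 18194 genes after the ± sign (n = 3 arrays per group). A gene is called, or said to rise or fall, at an adjusted p under 0.05 over all genes. Where the arrays of groups are said not to overlap, the share of all genes without overlap was not counted.

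On most arrays the standard deviation of all genes around their group mean lay between 0.072 and 0.117. It was larger on 2 arrays, replicate 1 of DMSO at 2 h (0.178) and replicate 3 of IBET858 at 12 h (0.157). The mean of 8 astrocyte markers was 0.59 on DMSO at 2 h replicate 1 and 0.52 on DMSO at 12 h replicate 1, against 0.13 on the next highest of the 24 arrays. Of the 30 genes, 26 were highest on replicate 1 among the DMSO arrays at 2 h and 18 at 12 h, compared with 42.9% and 35.6% of all genes. Tm7sf2, for example, had 1.00 on DMSO at 2 h replicate 1, and 0.15 and 0.04 on the other DMSO arrays. Comparisons with DMSO are therefore given with and without these arrays where the value changes. In a culture of mixed cells, fewer cells of a type and less RNA per cell cannot be told apart. The part of the astrocyte markers in the results below was not tested.

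**Figure D1:**
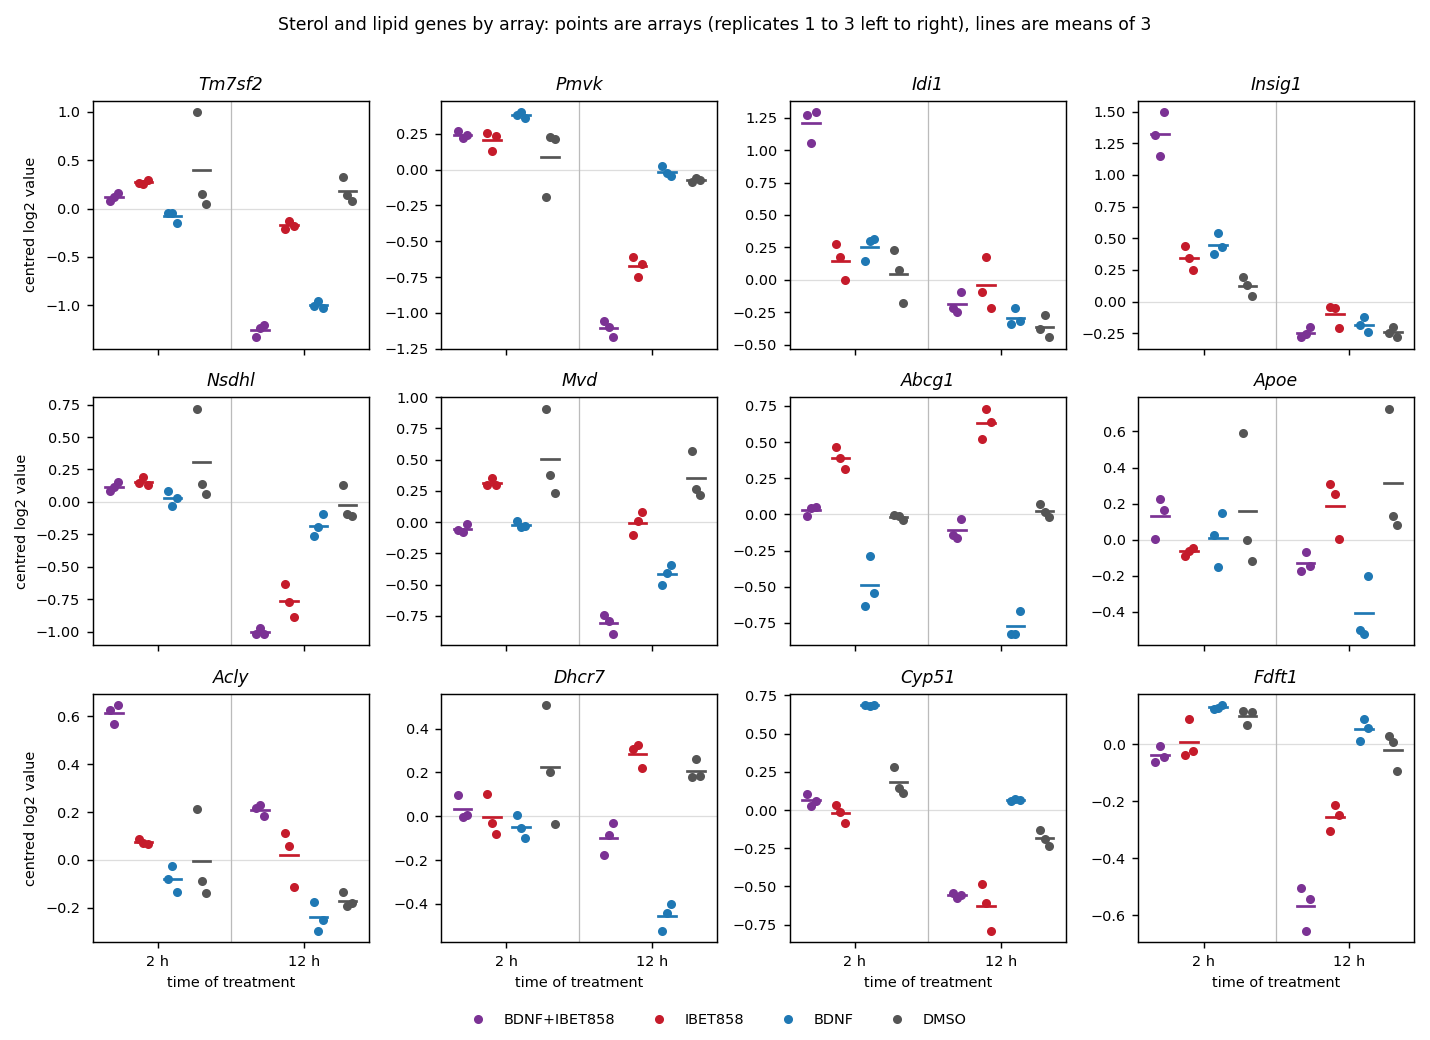
Centred log2 value (vertical axis) of 12 genes with the largest called changes, on each array at 2 h and 12 h; points are arrays and lines are means of 3. Insig1, Idi1 and Acly stand highest with BDNF and IBET858 at 2 h, Abcg1 is highest with IBET858 alone and lowest with BDNF alone at both times, and DMSO at 2 h replicate 1 lies far above its group for Tm7sf2, Nsdhl and Mvd.

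BDNF with IBET858 against BDNF at 2 h asks what BET inhibition does while BDNF acts, with no DMSO array in the comparison. Insig1, Idi1 and Acly rose most, while Cyp51, Srebf2, Sc5d and Sqle fell. Of the 30 genes, 6 rose and 9 fell, where 27.1% of all genes were called, 12.2% higher and 14.9% lower. The median change of the genes was -0.03, against 0.05 for all genes. The means of some marker lists, that of neurons among them, were higher in the same comparison. The mean of 7 vascular and fibroblast markers was 0.64 to 0.67 with both agents, against -0.05 to 0.03 with BDNF. Of these, 3 of 7 rose, among them Pecam1 by 3.64 ± 0.12, which made up much of the shift of this mean. The mean of 8 neuron markers was 0.43 to 0.48 against 0.03 to 0.11 (3 of 8 rose, among them the neurofilament genes Nefl and Nefm). That of 7 microglia markers was 0.29 to 0.49 against 0.16 to 0.25. Only 1 of these 7 rose, near the 12.2% of all genes that rose. None of 8 astrocyte markers was called. The part of these markers in the results was not tested.

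Insig1, the sterol-regulated brake on SREBP release, had 1.32, 1.15 and 1.499 on the arrays with BDNF and IBET858 at 2 h, against 0.38, 0.54 and 0.43 with BDNF. The groups were far apart, and the highest array of any other group, at either time, had 0.54. Insig1 rose by 0.87 ± 0.08 (1.83-fold, limma adjusted p = 7.48e-09). Idi1, which isomerises isopentenyl diphosphate, had 1.27, 1.06 and 1.29 with both agents against 0.15, 0.30 and 0.32 with BDNF. It rose by 0.95 ± 0.10 (1.94-fold, limma adjusted p = 2.55e-07), and each of its 2 probe sets rose (1.10 and 0.80). Acly, which makes cytosolic acetyl-CoA from citrate, had 0.63, 0.57 and 0.65 with both agents against -0.08, -0.03 and -0.14 with BDNF. It rose by 0.70 ± 0.07 (1.62-fold, limma adjusted p = 1.14e-07). Of its 6 probe sets, 5 rose by 0.23 to 1.25 and the other had 0.29 (adjusted p = 0.0644).

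For the 3 genes that rose together, for Hmgcs1, whose window holds a sterol regulatory element, and for Tm7sf2, the gene with the largest fall in any comparison with DMSO, the promoters are shown from 250 bases before to 50 after the annotated start (RefSeq, build GRCm38.p6), each on the strand of its gene. They are Insig1 at chr5:28071162-28071461 (plus strand), Idi1 at chr13:8885356-8885655 (plus), Acly at chr11:100527951-100528250 (minus), Hmgcs1 at chr13:119690101-119690400 (plus) and Tm7sf2 at chr19:6067801-6068100 (minus). Capitals mark the letters of a sterol regulatory element (TCACNCCAC), an E-box (CACGTG) and a CCAAT box (CCAAT), each read on both strands.
Insig1: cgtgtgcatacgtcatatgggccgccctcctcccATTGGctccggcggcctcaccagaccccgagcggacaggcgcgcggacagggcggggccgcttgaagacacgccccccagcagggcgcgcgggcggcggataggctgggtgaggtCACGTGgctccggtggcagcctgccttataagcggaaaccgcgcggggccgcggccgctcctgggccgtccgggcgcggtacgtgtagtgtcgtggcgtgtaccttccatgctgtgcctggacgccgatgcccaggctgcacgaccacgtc
Idi1: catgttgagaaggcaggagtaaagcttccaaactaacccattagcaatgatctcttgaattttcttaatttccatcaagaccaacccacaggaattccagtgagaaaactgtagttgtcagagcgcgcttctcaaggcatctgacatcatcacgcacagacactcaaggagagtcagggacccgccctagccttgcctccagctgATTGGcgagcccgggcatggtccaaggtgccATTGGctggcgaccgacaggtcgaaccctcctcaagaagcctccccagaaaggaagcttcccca
Acly: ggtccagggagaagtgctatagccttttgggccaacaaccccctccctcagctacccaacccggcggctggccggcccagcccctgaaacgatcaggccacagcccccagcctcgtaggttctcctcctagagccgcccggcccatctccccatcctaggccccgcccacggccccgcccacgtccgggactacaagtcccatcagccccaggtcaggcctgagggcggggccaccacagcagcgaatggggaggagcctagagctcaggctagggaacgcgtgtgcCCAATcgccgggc
Hmgcs1: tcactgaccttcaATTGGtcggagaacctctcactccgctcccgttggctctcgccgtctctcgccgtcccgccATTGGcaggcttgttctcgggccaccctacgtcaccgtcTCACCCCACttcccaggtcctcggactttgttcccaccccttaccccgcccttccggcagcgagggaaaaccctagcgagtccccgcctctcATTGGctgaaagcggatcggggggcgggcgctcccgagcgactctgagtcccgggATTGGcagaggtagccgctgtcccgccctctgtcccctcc
Tm7sf2: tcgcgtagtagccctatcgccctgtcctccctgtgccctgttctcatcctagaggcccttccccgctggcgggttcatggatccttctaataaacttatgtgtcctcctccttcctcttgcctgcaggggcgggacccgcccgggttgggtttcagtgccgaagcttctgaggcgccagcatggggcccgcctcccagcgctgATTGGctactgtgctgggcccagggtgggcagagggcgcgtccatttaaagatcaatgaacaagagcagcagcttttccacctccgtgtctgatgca

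Each of the 5 windows holds a CCAAT box, the site of the factor NF-Y, which acts beside SREBP on sterol promoters. The window of Hmgcs1 held 4 such boxes, that of Idi1 2, and those of Insig1, Acly and Tm7sf2 1 each. Of the 23 genes here with a promoter window, 19 had a CCAAT box in at least 1 window (82.6%), against 41.1% of 27025 genes. A GC box (GGGCGG, both strands, not capitalised) was in 19 of 23 (82.6%) against 38.2%, and an E-box, as in the Insig1 window, in 6 of 23 (26.1%) against 8.09%. The sterol regulatory element as spelled here was in the window of Hmgcs1 only, 1 of 23 (4.35%) against 1.44%. These are matches of letters. No motif overlapped another in the windows shown, and the 3 genes that rose together shared none of the 4 motifs that the other members lacked.

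Other sterol genes moved the opposite way at 2 h. Cyp51, the lanosterol demethylase, had 0.11, 0.03 and 0.06 with both agents against 0.69, 0.68 and 0.68 with BDNF. The arrays of the groups did not overlap, and Cyp51 fell by 0.62 ± 0.06 (limma adjusted p = 7.68e-08), with all 3 of its probe sets called lower. Srebf2 fell by 0.52 ± 0.06 (limma adjusted p = 2.56e-07). On 1 of its 2 probe sets it had -0.26, -0.11 and -0.32 with both agents against 0.71, 0.67 and 0.74 with BDNF. On the other it had -0.03, 0.09 and -0.13 against 0.14, 0.09 and 0.05, so the fall came mostly from 1 probe set. Sc5d, a sterol desaturase, fell by 0.48 ± 0.06 (adjusted p = 8.21e-07) and Sqle, squalene epoxidase, by 0.28 ± 0.06 (adjusted p = 0.00126). Insig2, the second INSIG gene, fell by 0.24 ± 0.05 (adjusted p = 0.00152). Thus Insig1 and Insig2 moved in opposite directions. Abcg1, a sterol exporter, rose by 0.52 ± 0.07 (adjusted p = 1.09e-05). The smaller calls of Hmgcs1 (0.17), Srebf1 (0.23), Fdft1 (-0.17), Hsd17b7 (-0.17), Scap (-0.21) and Stard4 (-0.24) were each lost when 1 array or another of the 6 was left out, with changes between 0.15 and 0.27 for Hmgcs1 and Srebf1 and between -0.27 and -0.15 for the others.

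At 12 h of BDNF with IBET858 against BDNF, 4 of 6 mevalonate genes fell and none rose, and 4 of 10 squalene and sterol genes fell and Dhcr7 rose. Pmvk, Nsdhl, Fdft1, Cyp51 and Fdps fell most, and Insig1 and Idi1 were no longer higher. Here 3 genes rose and 11 fell, where 46.8% of all genes were called, 21.1% higher and 25.6% lower, so the total (46.7% of the 30) equals the share of all genes. The median change was -0.11, against -0.01 for all genes.

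Pmvk, phosphomevalonate kinase, had -1.05, -1.10 and -1.17 with both agents against 0.02, -0.02 and -0.04 with BDNF at 12 h. It fell by 1.09 ± 0.08 on the log2 scale (to 0.47 of the BDNF level, limma adjusted p = 1.08e-10). Nsdhl, which works in the removal of sterol methyl groups, had -1.02, -0.97 and -1.02 against -0.26, -0.20 and -0.09. It fell by 0.82 ± 0.11 (adjusted p = 2.59e-06). Fdft1, squalene synthase, had -0.50, -0.65 and -0.54 against 0.01, 0.09 and 0.06, and fell by 0.62 ± 0.05 (adjusted p = 1.28e-09). For these 3 genes every array with both agents lay below every BDNF array. In this comparison 18 of the 30 genes did not overlap, in either direction. Cyp51 had -0.55, -0.57 and -0.56 with both agents against 0.06, 0.07 and 0.06, and fell by 0.62 ± 0.06 (adjusted p = 2.49e-08), the same size as at 2 h. Fdps, farnesyl diphosphate synthase, fell by 0.50 ± 0.06, Stard4, a sterol carrier, by 0.50 ± 0.08, and Mvd, which makes isopentenyl diphosphate, by 0.39 ± 0.12 (adjusted p = 3.38e-07, 3.83e-05 and 0.00755). Insig1 had -0.06 ± 0.08 and Idi1 0.11 ± 0.10 at this time, without a call. Dhcr7 (0.36 ± 0.09), Abcg1 (0.66 ± 0.07) and Acly (0.45 ± 0.07) were the 3 that rose. The calls of Mvk (-0.21) and Sqle (-0.17) were lost when 1 of several arrays was left out, with values between -0.25 and -0.16.

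**Figure D2:**
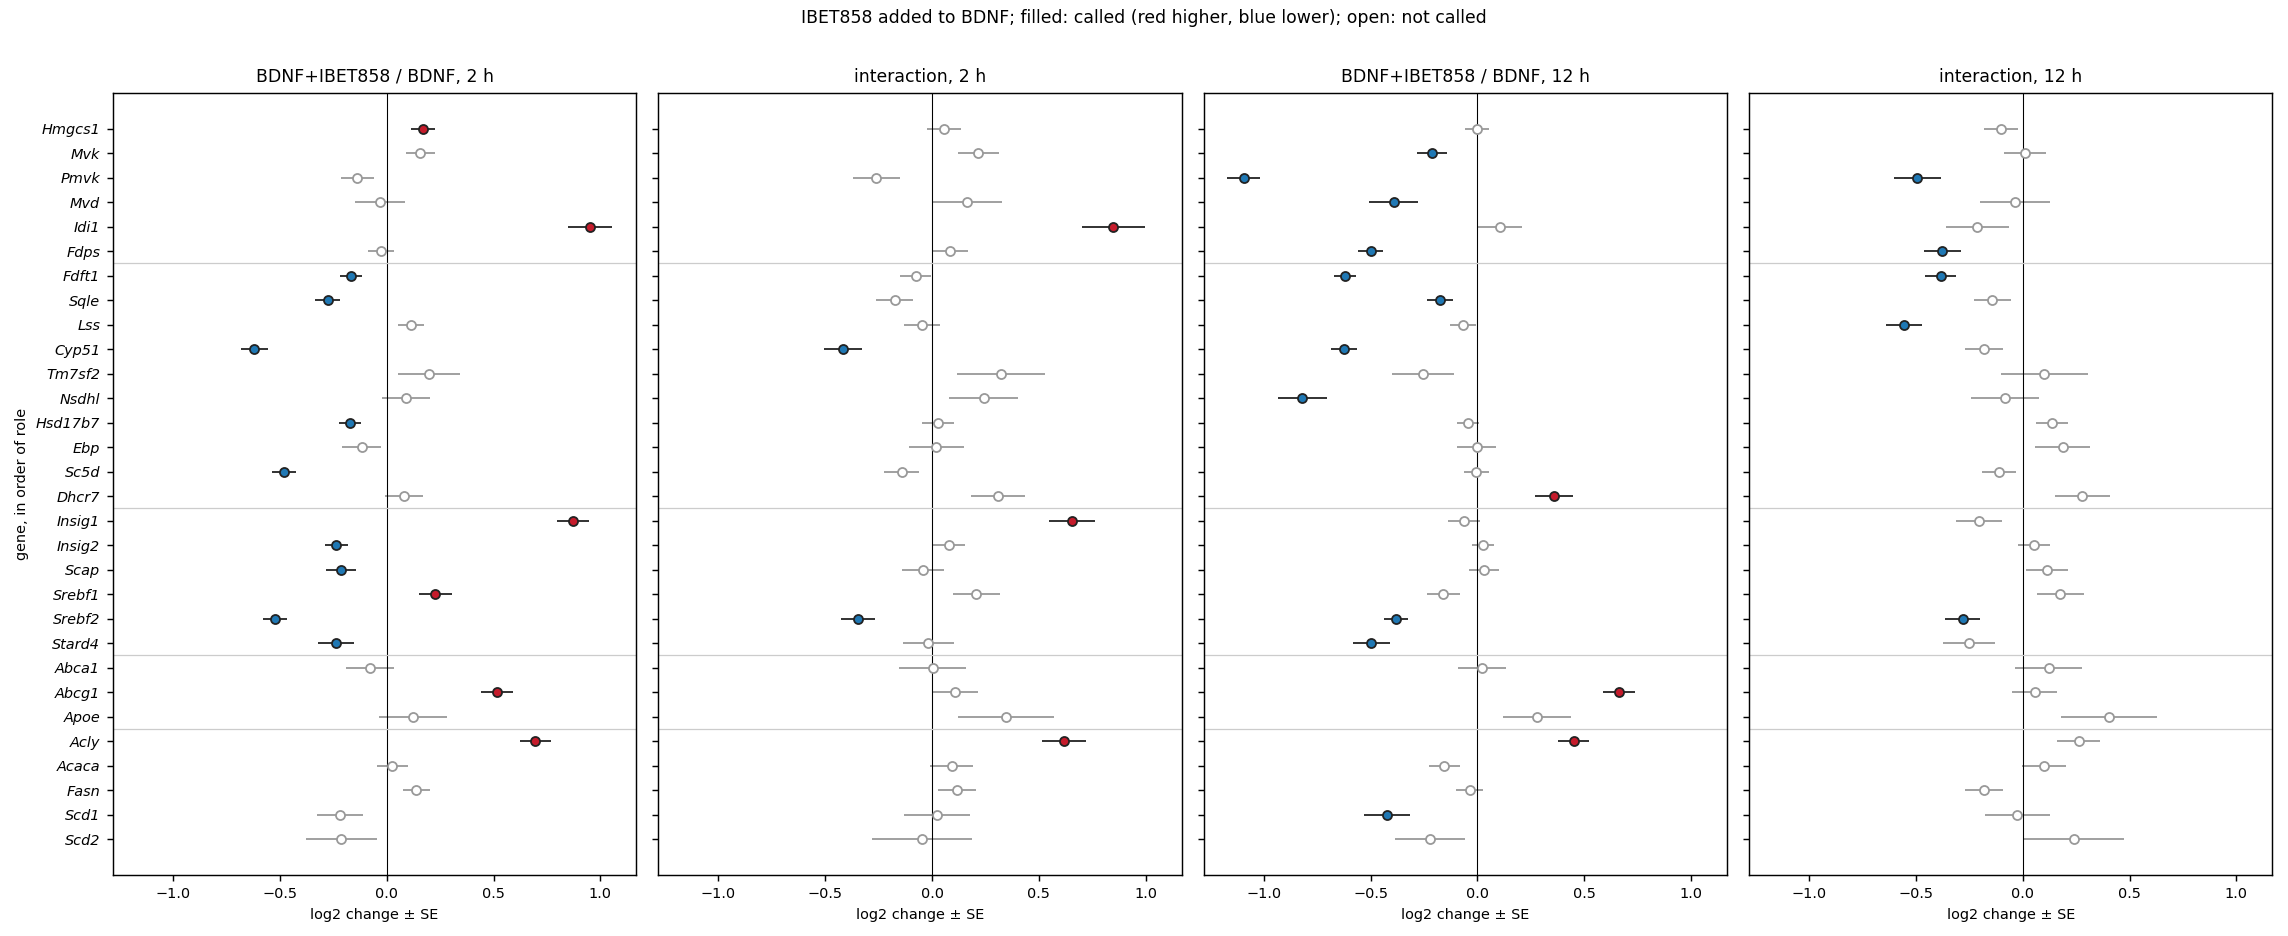
Log2 change with its standard error (horizontal axis) of the 30 genes, in order of role, at 2 h and 12 h. Panels show BDNF with IBET858 against BDNF, and the interaction, which is the IBET858 change with BDNF minus that without BDNF. Red points were called higher, blue points were called lower and open points were not called. Insig1 and Idi1 are farthest right at 2 h, and Pmvk (-1.09 against BDNF) is farthest left at 12 h.

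IBET858 against DMSO shows the inhibitor without added BDNF. At 2 h it changed few of the genes: Abcg1 rose, and Sc5d, Insig2, Cyp51, Hsd17b7 and Srebf2 fell. That is 1 higher and 5 lower of 30, where 14.9% of all genes were called, 5.64% higher and 9.27% lower, with a median change of -0.12 against 0.02 for all genes. The balance turned to 3 higher and 2 lower without both DMSO arrays high for astrocyte markers, and was 3 and 4 without the 2 arrays of large spread and 4 and 5 with array weights. Insig2 had -0.31, -0.35 and -0.38 with IBET858 against -0.06, -0.03 and 0.00 with DMSO, without overlap. It fell by 0.32 ± 0.05 (limma adjusted p = 0.000153), and Sc5d fell by 0.34 ± 0.06 (adjusted p = 0.000173). Insig1 (0.22 ± 0.08) and Idi1 (0.11 ± 0.10) were not called. All 6 called genes were also called in the same direction for BDNF with IBET858 against BDNF at 2 h, which uses other arrays, and made up 40.0% of the genes called there; over all genes the shares were 70.9% and 39.0%. Without DMSO at 2 h replicate 1, Cyp51 had -0.15 (adjusted p = 0.145) and Srebf2 -0.12 (adjusted p = 0.202). The calls of Cyp51, Hsd17b7 and Srebf2 were also lost without single IBET858 arrays, with values no further from 0 than -0.24 in any of these fits.

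At 12 h of IBET858 alone, Nsdhl, Pmvk, Scd2 and Cyp51 had the largest called falls and Abcg1 and Lss the largest called rises. Of the 30 genes 4 rose and 13 fell, where 48.7% of all genes were called, 22.9% higher and 25.8% lower. The median change was -0.12, against 0.04 for all genes. The counts were 7 higher and 13 lower without the 2 arrays of large spread. They were 5 and 12 without both DMSO arrays high for astrocyte markers. Nsdhl had -0.63, -0.77 and -0.89 with IBET858 against 0.13, -0.10 and -0.11 with DMSO, and fell by 0.74 ± 0.11 (limma adjusted p = 1.16e-05). Pmvk had -0.61, -0.75 and -0.66 against -0.09, -0.06 and -0.07, and fell by 0.60 ± 0.08 (adjusted p = 1.07e-06). Cyp51 had -0.48, -0.61 and -0.79 against -0.13, -0.19 and -0.23, and fell by 0.44 ± 0.06 (adjusted p = 3.79e-06). In each case all IBET858 arrays were below all DMSO arrays. Of the 30 genes, 17 did not overlap here, in either direction. Lss, lanosterol synthase, which works 1 step before Cyp51, rose by 0.49 ± 0.06 (limma adjusted p = 6.02e-07). Its 3 probe sets had 0.90, 0.44 and 0.13, so the size of the rise was uneven. By their gene means, these neighbouring steps moved in opposite directions.

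Among the regulators at 12 h of IBET858, Srebf1 fell by 0.34 ± 0.08 (limma adjusted p = 0.00103), while Srebf2 (-0.10 ± 0.06), Insig1 (0.14 ± 0.08) and Insig2 (-0.03 ± 0.05) were not called. Of the fatty acid genes, Scd1, a fatty acid desaturase, fell by 0.40 ± 0.11 (adjusted p = 0.00405) and Acaca, which makes malonyl-CoA, by 0.25 ± 0.07 (adjusted p = 0.00548). Scd2, the second desaturase here, had -0.07, -0.56 and -0.97 with IBET858 against 0.09, -0.34 and 0.04 with DMSO. Its groups overlapped, and its call (-0.46 ± 0.16, adjusted p = 0.0251) was lost without IBET858 replicate 3 (-0.24, adjusted p = 0.222) or replicate 2 (-0.45) and without DMSO replicate 1 (-0.38) or replicate 3 (-0.41), while it had -0.69 without IBET858 replicate 1. Tm7sf2, a sterol reductase, was called at -0.36 ± 0.15 (adjusted p = 0.048) and lost the call when any 1 of the 6 arrays was left out (-0.41 to -0.29). Mvd (-0.35 ± 0.12) had -0.24 without DMSO replicate 1 (adjusted p = 0.109) and -0.31 without IBET858 replicate 1 (adjusted p = 0.0603). The rises of Idi1 (0.32 ± 0.10) and Acly (0.19 ± 0.07) and the fall of Stard4 (-0.24 ± 0.08) were also lost without 1 of several arrays: Idi1 had 0.21 without IBET858 replicate 2, Acly 0.14 without IBET858 replicate 1 and Stard4 -0.15 without IBET858 replicate 3.

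Of the 17 genes called with IBET858 alone at 12 h, 10 were called in the same direction with BDNF present, on other arrays: Mvk, Pmvk, Mvd, Fdft1, Cyp51, Nsdhl, Stard4 and Scd1 lower, and Abcg1 and Acly higher. This was 58.8% of the first set and 71.4% of the second, against 71.1% and 74.0% over all genes. At 12 h the IBET858 arrays also held lower astrocyte markers: their mean lay between -0.39 and -0.22 with IBET858, against -0.05 to 0.52 with DMSO, and 4 of 8 markers fell, where 25.8% of all genes fell, among them Aqp4 (-1.21 ± 0.18) and Gja1 (-1.02 ± 0.17). The mean change of the 8 astrocyte markers was -0.44, and -0.26 without both high DMSO arrays, where 4 of 8 fell too. Between BDNF with IBET858 (-0.33 to -0.26) and BDNF (-0.25 to -0.10), 2 of 8 fell, about the share of all genes that fell there (25.6%). With IBET858 at 12 h, 4 of 7 microglia markers fell and none rose, and of 8 neuron markers 4 fell and 2 rose. Spiked-in poly-A control RNAs were higher by 0.86 on the IBET858 arrays at 12 h (0.66 against -0.20 with DMSO) and by 0.50 with BDNF and IBET858 against BDNF. Hybridisation spike-in controls were higher too, by 0.25 and 0.22 in these comparisons. The part of these shifts in the results was not tested.

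BDNF against DMSO at 2 h split the pathway. Cyp51, Lss, Insig1, Pmvk, Srebf2, Hmgcs1 and Sc5d rose, while Mvd, Tm7sf2, Abcg1, Srebf1, Dhcr7, Mvk and Insig2 fell. These were 7 higher and 7 lower of 30, where 27.9% of all genes were called, 9.79% higher and 18.1% lower, and the median change was -0.08 against 0.00 for all genes. The even split depended on DMSO replicate 1: the counts were 9 higher and 5 lower without both DMSO arrays high for astrocyte markers, 10 and 4 without the 2 arrays of large spread, and 11 and 8 with array weights. Cyp51 had 0.69, 0.68 and 0.68 with BDNF at 2 h against 0.28, 0.15 and 0.11 with DMSO. It rose by 0.50 ± 0.06 (1.42-fold, limma adjusted p = 1.98e-06), and all 3 probe sets rose. Lss rose by 0.49 ± 0.06 (adjusted p = 1.94e-06) through all 3 of its probe sets. Insig1 rose by 0.32 ± 0.08 (adjusted p = 0.00217). Hmgcs1, the cytosolic HMG-CoA synthase, rose by 0.27 ± 0.06 (adjusted p = 0.000683), but 1 of its 5 probe sets had 1.16 and the others 0.03 to 0.09. Srebf2 rose by 0.29 ± 0.06 (adjusted p = 0.000463), with 0.66 and -0.08 on its 2 probe sets, and Sc5d by 0.27 ± 0.06 (adjusted p = 0.000802), with 0.87 on 1 of 3 probe sets and -0.10 and 0.06 on the others.

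At 2 h of BDNF, 4 of the falls (Mvd, Tm7sf2, Dhcr7 and Mvk) and the rise of Pmvk were over 1.5 times smaller without DMSO replicate 1. Mvd had 0.01, -0.04 and -0.03 with BDNF against 0.91, 0.38 and 0.24 with DMSO, without overlap. It fell by 0.53 ± 0.12 (limma adjusted p = 0.00129), and by 0.33 (adjusted p = 0.00586) without DMSO replicate 1. Tm7sf2 (-0.48 ± 0.15) had -0.18 without that array (adjusted p = 0.0556), Dhcr7, the last enzyme of the pathway (-0.27 ± 0.09), had -0.13 (adjusted p = 0.221) and Mvk, mevalonate kinase (-0.21 ± 0.07), had -0.11 (adjusted p = 0.186). Pmvk rose by 0.30 ± 0.08 with all arrays and by 0.16 (adjusted p = 0.029) without it. Dhcr7, Tm7sf2 and Mvk lost their calls without single BDNF arrays as well. Srebf1 fell by 0.39 ± 0.08 (adjusted p = 0.000559), and by 0.32 without that array and its 12 h counterpart. Insig2 and Abcg1 moved little without these arrays (-0.21 against -0.20 with all arrays for Insig2, -0.46 against -0.47 for Abcg1). Stard4, not called with all arrays (0.18), had 0.31 (adjusted p = 0.00153) without them.

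At 12 h of BDNF alone, 14 of the 30 genes fell and Cyp51 alone rose. Tm7sf2, Abcg1, Mvd, Apoe and Dhcr7 fell most. Over all genes 41.0% were called, 16.9% higher and 24.2% lower, and the median change was -0.16 against -0.01. The counts of the 30 genes were 2 higher and 17 lower without the 2 arrays of large spread. They were 1 and 14 without both DMSO arrays high for astrocyte markers. Tm7sf2 had -1.01, -0.96 and -1.03 with BDNF against 0.33, 0.14 and 0.08 with DMSO. It fell by 1.18 ± 0.15 (to 0.44 of the DMSO level, limma adjusted p = 8.58e-07), and by 1.11 without both DMSO arrays that were high for astrocyte markers. Mvd had -0.50, -0.41 and -0.34 against 0.57, 0.26 and 0.22, and fell by 0.77 ± 0.12 (adjusted p = 1.28e-05). Its change lay between -0.83 and -0.66 when 1 of these 6 arrays was left out. Dhcr7 had -0.52, -0.44 and -0.40 against 0.18, 0.26 and 0.18, and fell by 0.66 ± 0.09 (adjusted p = 3.07e-06). For these 3 enzymes all BDNF arrays lay below all DMSO arrays. Of the 30 genes, 17 did not overlap here, in either direction. Apoe had -0.50, -0.52 and -0.20 with BDNF against 0.73, 0.13 and 0.08 with DMSO. The groups did not overlap. Apoe fell by 0.72 ± 0.16 (adjusted p = 0.000825), and by 0.51 (adjusted p = 0.000428) without both high DMSO arrays. Of the 8 astrocyte markers, 3 fell with BDNF at 12 h, among them Aldoc (-0.76 ± 0.17) and Aqp4 (-0.70 ± 0.18), and their mean was -0.25 to -0.10 with BDNF against -0.05 to 0.52 with DMSO. The mean change of the 8 was -0.34, and -0.16 without both high DMSO arrays, where 3 of 8 fell too. Over all genes 24.2% fell. Of 8 neuron markers 4 rose and 4 fell. The part of these markers in the fall of Apoe was not tested.

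Further genes that fell with BDNF at 12 h were Srebf1 (-0.37 ± 0.08, limma adjusted p = 0.000491), Scap, the SREBP escort (-0.32 ± 0.07, adjusted p = 0.000689), and Fasn, fatty acid synthase (-0.25 ± 0.06, adjusted p = 0.00305). Cyp51 rose by 0.25 ± 0.06 (adjusted p = 0.00252). The calls of Hmgcs1 (-0.14), Mvk (-0.19), Fdps (-0.18), Hsd17b7 (-0.15), Ebp (-0.28) and Stard4 (-0.24) were each lost without 1 of several arrays, that of Hmgcs1 without any 1 of the 6, with values between -0.34 and -0.12 over these fits.

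**Figure D3:**
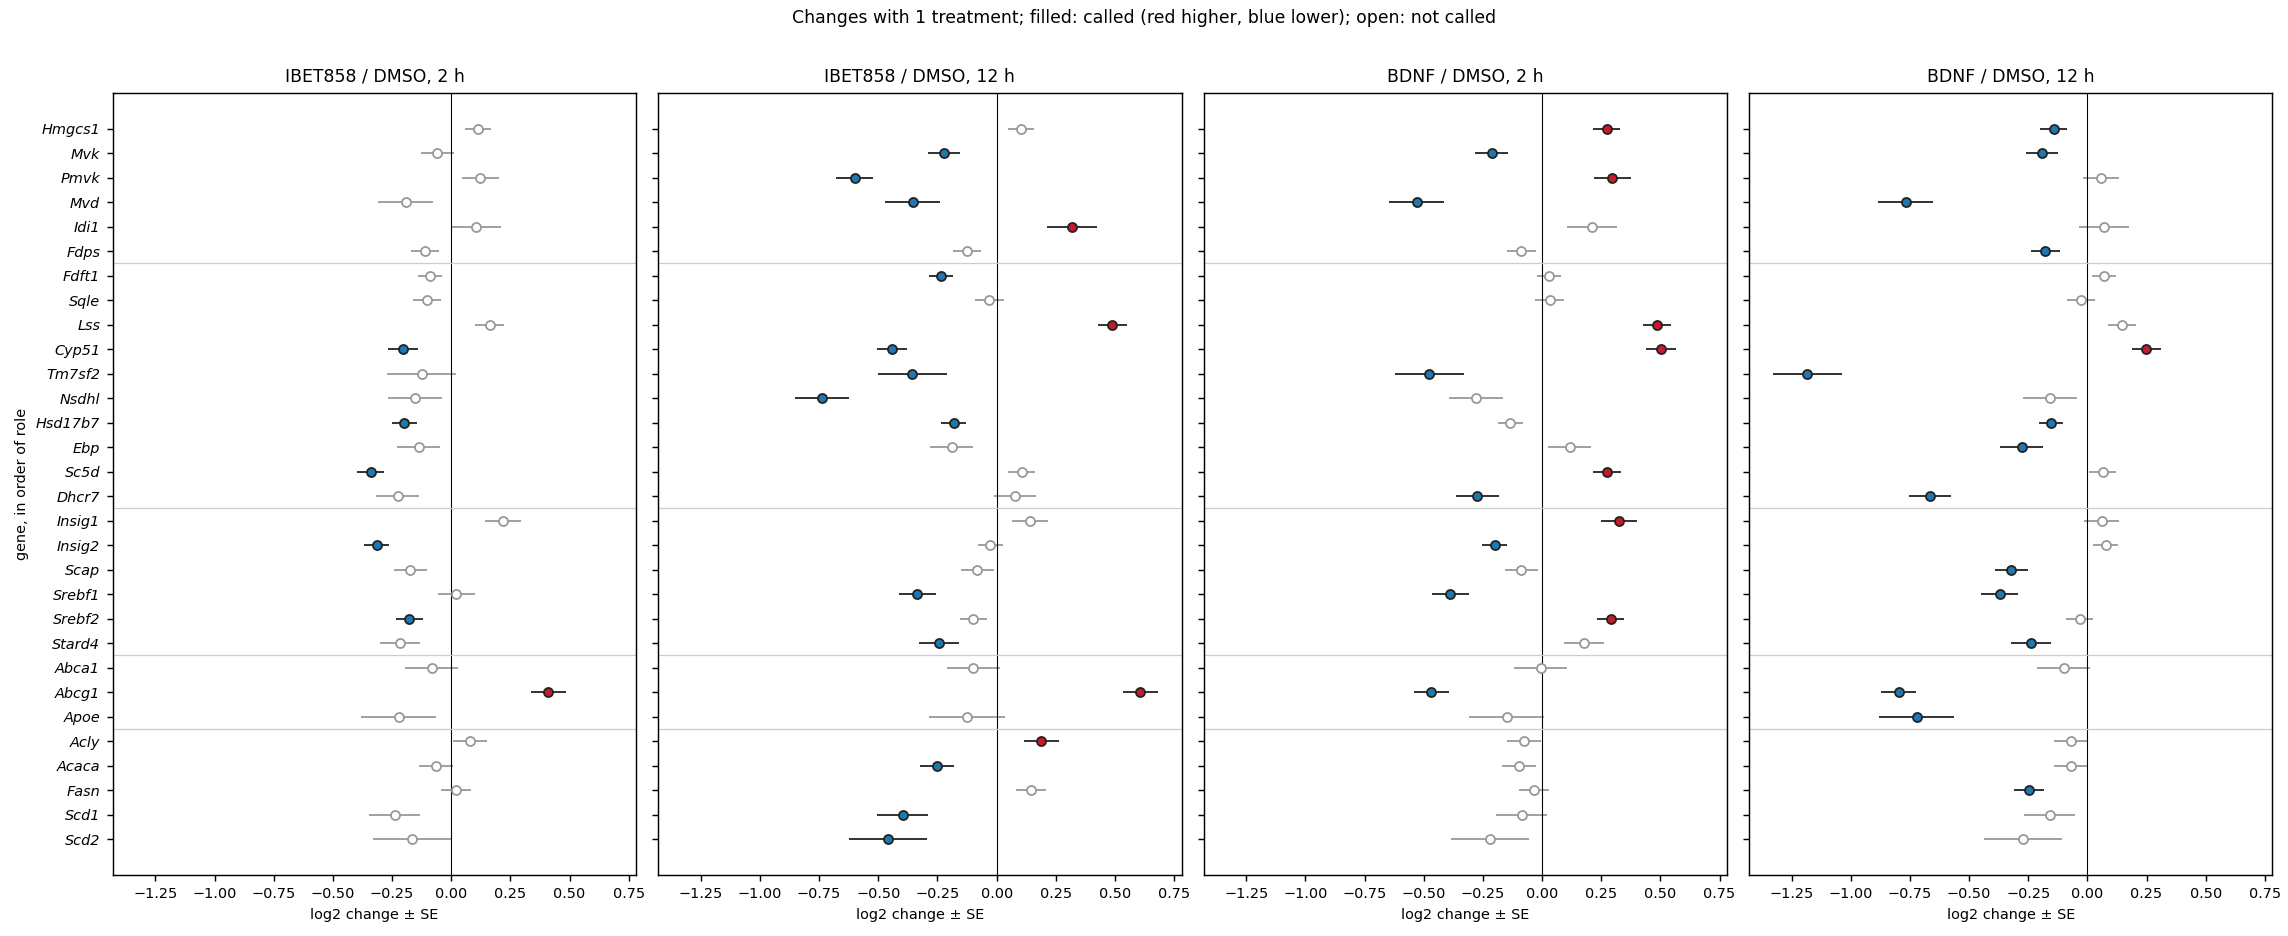
Log2 change with its standard error (horizontal axis) of the 30 genes, in order of role, for IBET858 against DMSO and BDNF against DMSO at 2 h and 12 h. Red points rose, blue points fell and open points were not called; Abcg1 is right of 0 in both IBET858 panels and left of 0 in both BDNF panels, and Tm7sf2 at -1.18 is the lowest point with BDNF at 12 h.

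BDNF with IBET858 against IBET858 asks what BDNF does when BET proteins are inhibited. At 2 h Idi1, Insig1, Acly, Lss and Hmgcs1 rose, and Mvd and Abcg1 fell. These were 5 higher and 2 lower of 30, where 21.2% of all genes were called, 6.44% higher and 14.7% lower. The medians were 0.00 for the 30 genes and for all genes. Idi1 had 1.27, 1.06 and 1.29 with both agents against 0.28, 0.18 and 0.00 with IBET858, and rose by 1.06 ± 0.10 (2.08-fold, limma adjusted p = 1.17e-07). Insig1 had 1.32, 1.15 and 1.499 against 0.44, 0.34 and 0.25, and rose by 0.98 ± 0.08 (1.97-fold, adjusted p = 3.13e-09). Acly had 0.63, 0.57 and 0.65 against 0.09, 0.07 and 0.07, and rose by 0.54 ± 0.07 (adjusted p = 7.88e-06). None of the 3 genes overlapped between the groups, as held for 18 of the 30 genes in this comparison. The rise of Hmgcs1 came mostly from 1 of its 5 probe sets, with 1.81, 1.88 and 1.85 against 0.64, 0.42 and 0.45. Mvd was called at -0.37 ± 0.12 (adjusted p = 0.0269) and lost the call without any 1 of the 6 arrays (-0.39 to -0.35).

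At 12 h the same comparison showed 15 genes lower and Acly higher, where 39.3% of all genes were called, 16.1% higher and 23.2% lower. The median was -0.20, against -0.07 for all genes. Tm7sf2 had -1.33, -1.23 and -1.20 with both agents against -0.21, -0.13 and -0.18 with IBET858, and fell by 1.08 ± 0.15 (limma adjusted p = 3.33e-06). Mvd had -0.74, -0.79 and -0.90 against -0.10, 0.01 and 0.08, and fell by 0.81 ± 0.12 (adjusted p = 8.19e-06). The arrays of both genes were apart, as held for 21 of the 30 genes in this comparison. Fdps fell by 0.55 ± 0.06, Pmvk by 0.44 ± 0.08, Fasn by 0.43 ± 0.06 and Lss by 0.41 ± 0.06 (adjusted p = 1.71e-07, 9.51e-05, 1.07e-05 and 1.01e-05). Of the 15 genes called with BDNF alone at 12 h, 10 were called lower here too, on other arrays: Hmgcs1, Mvk, Mvd, Fdps, Tm7sf2, Dhcr7, Scap, Stard4, Abcg1 and Fasn. That was 66.7% of the first set and 62.5% of the second, against 62.1% and 64.8% over all genes. The calls of Acly (0.19), Mvk (-0.18), Sqle (-0.17) and Scap (-0.21) were lost without 1 of several arrays; Acly had 0.13 (adjusted p = 0.217) without IBET858 replicate 3, and the others lay between -0.26 and -0.14.

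Abcg1 was the only one of the 30 genes called in all 8 treatment comparisons, and Abca1, its partner in cholesterol export, was called in none of them. The shares of all genes called in all 8 or in none were not counted. The comparisons of each time reuse the same groups, so these calls are not separate results. At 2 h Abcg1 had -0.01, 0.04 and 0.05 with BDNF and IBET858, 0.46, 0.39 and 0.31 with IBET858, -0.63, -0.29 and -0.55 with BDNF, and -0.01, -0.01 and -0.04 with DMSO. At 12 h it had -0.14, -0.16 and -0.03 with both agents, 0.52, 0.73 and 0.64 with IBET858, -0.83, -0.83 and -0.67 with BDNF, and 0.07, 0.02 and -0.02 with DMSO. The inhibitor alone thus gave the highest arrays and BDNF alone the lowest at each time, with both agents close to DMSO. IBET858 raised Abcg1 by 0.41 ± 0.07 at 2 h and 0.61 ± 0.07 at 12 h without BDNF (limma adjusted p = 0.000393 and 5.78e-07). BDNF lowered it, with changes of -0.47 ± 0.07 at 2 h and -0.80 ± 0.07 at 12 h against DMSO (adjusted p = 4.43e-05 and 1.76e-08). Against IBET858, BDNF with IBET858 gave -0.36 ± 0.07 and -0.74 ± 0.07. Both probe sets of Abcg1 had the same sign in these comparisons. Its interaction of BDNF and IBET858 was 0.11 ± 0.11 at 2 h and 0.06 ± 0.11 at 12 h, without a call. The changes of Abca1 lay between -0.10 and 0.02, with a standard error of 0.11. Its probe sets disagreed at 12 h: 1 of 3 was called higher and another lower, with IBET858 (0.30 and -0.45) and with BDNF (0.30 and -0.54). Without both high DMSO arrays these were 0.39 and -0.23 with IBET858 (adjusted p = 0.00361 and 0.0396) and 0.39 and -0.32 with BDNF (adjusted p = 0.00445 and 0.00698).

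The interaction is the IBET858 change with BDNF minus that without BDNF. At 2 h it was called for 5 of 30 genes, 3 higher and 2 lower, where 8.40% of all genes were called, 3.11% higher and 5.29% lower. Idi1 (0.85 ± 0.15), Insig1 (0.65 ± 0.11) and Acly (0.62 ± 0.10) had positive interactions (limma adjusted p = 0.000542, 0.000284 and 0.000317): the agents together gave more than the sum of their separate log2 changes. Cyp51 (-0.42 ± 0.09) and Srebf2 (-0.35 ± 0.08) had negative ones (limma adjusted p = 0.00353 and 0.00782). The BDNF change was 0.09 with the inhibitor and 0.50 without it for Cyp51, and -0.06 and 0.29 for Srebf2. Without the inhibitor, the BDNF change of Srebf2 was 0.66 on 1 of its 2 probe sets and -0.08 on the other. The negative interaction of Srebf2 came from the first of these probe sets. At 12 h 5 of 30 genes had a called interaction, all negative, where 16.2% of all genes were called, 8.94% higher and 7.24% lower. They were Lss (-0.56 ± 0.08), Pmvk (-0.49 ± 0.11), Fdft1 (-0.38 ± 0.07), Fdps (-0.38 ± 0.08) and Srebf2 (-0.28 ± 0.08), with adjusted p of 9.42e-05, 0.00325, 0.00083, 0.00373 and 0.0203. Srebf2 had -0.25 (adjusted p = 0.0583) without DMSO at 12 h replicate 3. The count at 12 h was 8 without the 2 arrays of large spread, and 9 without both DMSO arrays high for astrocyte markers.

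Several changes differed between the times. The IBET858 change against DMSO was lower at 12 h than at 2 h for Pmvk (-0.72 ± 0.11), Nsdhl (-0.59 ± 0.16), Srebf1 (-0.36 ± 0.11) and Cyp51 (-0.24 ± 0.09), and higher for Sc5d (0.45 ± 0.08), Lss (0.33 ± 0.08) and Insig2 (0.29 ± 0.07). That is 7 of 30, where 33.1% of all genes were called, 15.8% higher and 17.4% lower. The BDNF change differed for 10 of 30, where 24.8% of all genes were called, 12.9% higher and 11.9% lower. It was lower at 12 h for Tm7sf2 (-0.71 ± 0.21), Hmgcs1 (-0.42 ± 0.08), Stard4 (-0.42 ± 0.12), Ebp (-0.39 ± 0.13), Dhcr7 (-0.39 ± 0.13), Lss (-0.34 ± 0.08), Abcg1 (-0.33 ± 0.11), Srebf2 (-0.32 ± 0.08) and Cyp51 (-0.25 ± 0.09), and higher for Insig2 (0.28 ± 0.07). For Hmgcs1, the gene mean at 2 h was 0.25, 0.31 and 0.32 with BDNF against -0.03, 0.05 and 0.05 with DMSO, and at 12 h -0.28 on each BDNF array against -0.18, -0.14 and -0.10 with DMSO. The difference of Hmgcs1 came mostly from 1 of its 5 probe sets (-1.32), with the others at -0.31 to -0.13, and its fall at 12 h was not called without any 1 of the 6 arrays. Without DMSO at 2 h replicate 1 the counts were 12 and 15. The calls of Cyp51 in either difference, and of Ebp, Dhcr7 and Abcg1 in that of BDNF, were lost without 1 of several other arrays, with values between -0.53 and -0.16; the lowest size, -0.16, was that of Cyp51 in the IBET858 difference.

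Within DMSO, 12 h against 2 h gave 1 gene higher and 7 lower of 30, where 7.54% of all genes were called, 3.91% higher and 3.63% lower. Insig2 rose by 0.21 ± 0.05. Idi1 (-0.41 ± 0.10), Stard4 (-0.40 ± 0.08), Insig1 (-0.37 ± 0.08), Cyp51 (-0.37 ± 0.06), Sc5d (-0.31 ± 0.06), Hsd17b7 (-0.26 ± 0.05) and Acaca (-0.25 ± 0.07) fell. Insig1 had -0.25, -0.20 and -0.28 at 12 h against 0.20, 0.13 and 0.04 at 2 h, so the groups were apart. Without DMSO at 2 h replicate 1, Idi1 had -0.31 (limma adjusted p = 0.0815), Acaca -0.15 (adjusted p = 0.159) and Stard4 -0.26. The calls of Idi1 and Acaca were also lost without some other DMSO arrays (-0.40 to -0.36 for Idi1, -0.27 and -0.19 for Acaca). Insig2 had 0.19 (adjusted p = 0.0717) without DMSO at 12 h replicate 3. Every comparison against DMSO rests on these arrays of its own time.

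Other genes of the pathway, from a list of 29 of which 26 were measured, were described in the same way. With BDNF and IBET858 against BDNF at 2 h, 3 rose and 7 fell (38.5% called, against 27.1% of all genes). Mylip, which marks lipoprotein receptors for degradation and is an LXR target, rose by 2.23 ± 0.08 (limma adjusted p = 8.98e-15), while Erlin1 and Msmo1, a sterol oxidase, fell by 0.74 ± 0.07 and 0.48 ± 0.08. The interaction of Mylip at 2 h was 1.21 ± 0.11 (adjusted p = 2.97e-07). With IBET858 alone at 2 h, 2 rose and 3 fell (19.2% against 14.9%), among them Mylip (1.02 ± 0.08) and Erlin1 (-0.55 ± 0.07). With BDNF alone at 2 h, 3 rose and 8 fell (42.3% against 27.9%), among them Msmo1 (0.70 ± 0.08), Mylip (-0.79 ± 0.08) and Npc1, which carries cholesterol out of lysosomes (-0.59 ± 0.07). Abcg1, also an LXR target, had the same signs as Mylip in these 3 comparisons, but not for BDNF with IBET858 against IBET858 at 2 h (-0.36, against 0.42 for Mylip).

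At 12 h of IBET858 alone 8 of the 26 rose and 7 fell (57.7% called, against 48.7% of all genes), with Me1, malic enzyme (-1.37 ± 0.11), Scarb1, a lipoprotein receptor (-1.29 ± 0.07), and Vldlr (-1.10 ± 0.09) lowest. BDNF with IBET858 against BDNF at 12 h gave 9 higher and 5 lower (53.8% against 46.8%), with Scarb1 at -1.32 ± 0.07, Mylip at 0.98 ± 0.08 and Vldlr at -0.94 ± 0.09. BDNF alone at 12 h gave 3 higher and 9 lower (46.2% against 41.0%), with Lpin1, a phosphatidate phosphatase (-0.89 ± 0.06), Vldlr (-0.66 ± 0.09) and Fads2, a desaturase (-0.64 ± 0.12), changed most. BDNF with IBET858 against IBET858 gave 3 higher and 4 lower at 2 h (26.9% against 21.2%), and 7 higher and 10 lower at 12 h (65.4% against 39.3%), where Me1 rose by 1.62 ± 0.11 and Acsl3, an acyl-CoA synthetase, by 0.74 ± 0.12. Me1 had the largest interaction at 12 h (1.45 ± 0.16, limma adjusted p = 1.4e-06), with 4 of 26 called, all positive (15.4% against 16.2% of all genes).

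Of the 30 genes, 20 had several probe sets, which did not always move together. In none of the 4 treatment comparisons at 2 h did 2 probe sets of a gene have opposite calls. At 12 h this happened for Srebf2 and Abca1 with IBET858, for Lss, Sc5d, Srebf2, Abca1 and Scd1 with BDNF, and for Sc5d in both comparisons with both agents. Scd1 had -0.64 and 0.32 with BDNF at 12 h, so its mean (-0.16) hides a split. Srebf2 had 0.27 and -0.33, and Sc5d -0.45, 0.05 and 0.59. For BDNF with IBET858 against BDNF at 12 h, the fall of Fdps came from 1 probe set (-1.03, the other 0.03) and that of Fdft1 from 2 of 4 (-1.18 and -1.17, the others -0.14 and 0.01). Which transcripts these probe sets read was not analysed here. Mvd, Cyp51 and Abcg1 had the same direction on all their probe sets in the comparisons with DMSO at 12 h. Tm7sf2, Pmvk, Nsdhl, Insig1, Dhcr7 and Apoe each rest on 1 probe set.

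**Figure D4:**
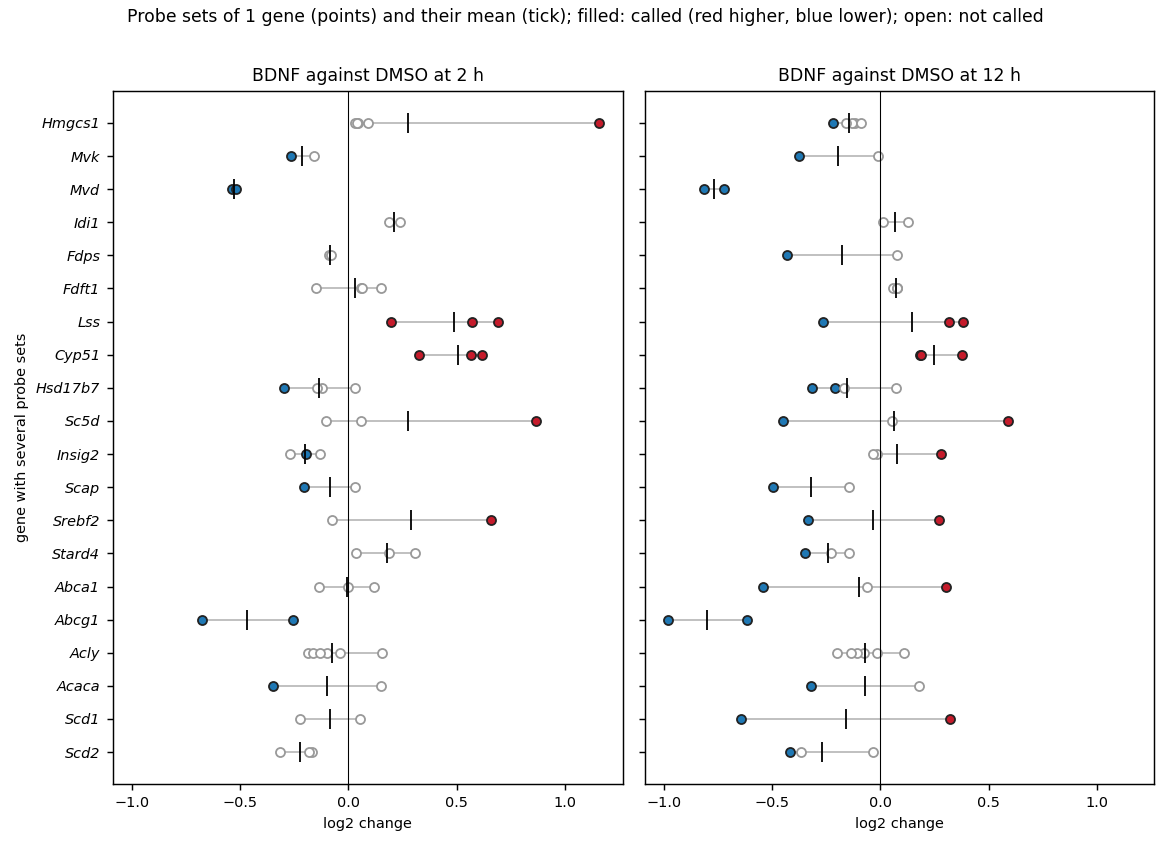
Log2 change (horizontal axis) of each probe set (points) of the 20 genes with several, and their mean (tick), for BDNF against DMSO at 2 h and 12 h; red points rose, blue fell and open points were not called. The 2 probe sets of Mvd lie close together, while Hmgcs1 at 2 h has 1 probe set at 1.16 and the others near 0, and Sc5d at 12 h spans -0.45 to 0.59.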

How the data were processed

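RNA of 24 samples of mouse neurons was measured on Affymetrix arrays. The deposited table holds log2 values that the authors made with RMA per the submitters' processing notes; the version, the base of the logarithm and the centring step are not given in the sources used here. RMA works in log2 units. In the deposited table the median over 24 arrays was 0 for 45101 of 45101 probe sets (tolerance 1e-06). RMA sets arrays to 1 distribution, so a change in total RNA per cell would not show. No dim genes could be removed, since centring took the levels away, and 3 arrays per group limit the precision.

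The platform annotation gave 1 symbol to 34958 probe sets, several to 932 and none to 9211 that it did not list; 34754 of the 34958 matched the RefSeq gene table of GRCm38.p6 by Entrez ID and 204 did not. Genes are means of their probe sets (18194 genes). limma 3.58.1 in R 4.3.3 fitted 1 mean per group with lmFit and eBayes (16 residual degrees of freedom), for 13 contrasts, with two-sided tests and Benjamini-Hochberg adjusted p-values across the 18194 genes. The fit was tested on simulated data.

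All 30 measured genes may be named; values of every array are given for the 12 with the largest absolute called change over the 8 treatment comparisons, and for a few others chosen after their values were seen. Of the other pathway genes, up to 3 called ones with the largest change are named per comparison. The genes and lists were chosen with earlier results of these data known. Alternatives were single probe sets, array median scaling, array weights, robust eBayes, arrays of 1 time only, a replicate block, leaving out arrays that stood apart, and each array in turn. Leaving out both DMSO arrays high for astrocyte markers was chosen after seeing the data.

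Whether equal replicate numbers mark paired cultures is not stated in the labels. Of 84 same-numbered pairs of arrays, 10 had residuals correlated above 0.1. The median r was 0.0029, with a range from -0.20 to 0.51, and the numbers were not taken as pairs. Whether some same-numbered arrays share an origin was not tested.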

Additional observations from a re-analysis of the deposited data

Results flagged for a closer look

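These results were picked out because the change with 1 agent differed between conditions by a direct test in limma (n = 3 arrays per group), with an adjusted p under 0.05 over all genes. No sample was tested for standing apart within its group, since groups of 3 are too small. The IBET858 change depended on BDNF at 2 h for Idi1 (0.85), Insig1 (0.65), Acly (0.62), Cyp51 (-0.42) and Srebf2 (-0.35). At 12 h it did so for Lss (-0.56), Pmvk (-0.49), Fdft1 (-0.38), Fdps (-0.38) and Srebf2 (-0.28). These are log2 differences of the IBET858 change with BDNF minus that without. For Srebf2 at 2 h the difference came from 1 of its 2 probe sets.

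The IBET858 change against DMSO differed at 12 h from that at 2 h for Pmvk (-0.72), Nsdhl (-0.59), Srebf1 (-0.36), Cyp51 (-0.24), Sc5d (0.45), Lss (0.33) and Insig2 (0.29). The BDNF change against DMSO differed between the times for Tm7sf2 (-0.71), Hmgcs1 (-0.42), Stard4 (-0.42), Ebp (-0.39), Dhcr7 (-0.39), Lss (-0.34), Abcg1 (-0.33), Srebf2 (-0.32), Cyp51 (-0.25) and Insig2 (0.28). In data outside the gene comparisons, the poly-A spike-in probe sets were higher by 0.86 on the IBET858 arrays than on the DMSO arrays at 12 h. The hybridisation spike-in probe sets were higher by 0.25 on the same arrays.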

How the results depend on the processing

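The 139 called changes of the 30 genes kept their direction in all 1944 refits of gene means that apply to them. Of these refits 193 lost the call, 152 of them among the 996 that left out 1 array. Single probe sets are not among these refits, and some differed in sign from their gene mean. Srebf2 with BDNF at 2 h, for example, had 0.66 and -0.08 on its 2 probe sets. Robust eBayes lost none, array weights 2, the replicate block 1, arrays of 1 time 9 of 114 and array median scaling 12. Before this scaling, the median change of all genes lay at most 0.065 from 0 in any of the 13 contrasts. Leaving out the 2 arrays of large spread (replicate 1 of DMSO at 2 h, replicate 3 of IBET858 at 12 h) lost 7 calls, and leaving out both DMSO arrays high for astrocyte markers lost 10. The cause was not tested.

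Counts of called genes moved by over 1.5 times as follows. Leaving out the arrays that stood apart gave 8 for the interaction at 12 h (5 with all arrays), 12 for the IBET858 change between the times (7) and 16 for the BDNF change between the times (10). Array weights gave 8, 13 and 18 for these and 16 for DMSO at 12 h against 2 h (8). Leaving out both high DMSO arrays gave 9 for the interaction at 12 h and 12 for the IBET858 change between the times. Testing each probe set by itself gave 12 for BDNF with IBET858 against IBET858 at 2 h (7) and 11 for the IBET858 change between the times.

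Leaving out each array in turn gave 4 to 8 called genes for IBET858 at 2 h, 13 to 18 at 12 h, 12 to 16 for BDNF at 2 h, 10 to 14 at 12 h, 10 to 13 for BDNF with IBET858 against BDNF at 2 h, 12 to 15 at 12 h, 6 against IBET858 at 2 h and 12 to 15 at 12 h. The ranges were 5 to 6 for the interaction at 2 h, 4 to 7 at 12 h, 6 to 12 and 7 to 15 for the IBET858 and BDNF changes between the times, both highest without DMSO at 2 h replicate 1, and 6 to 12 for DMSO over time, highest without DMSO at 2 h replicate 3. With the replicate number as a block, counts were 7, 18, 14, 14, 15, 14, 7, 17, 5, 5, 7, 11 and 8 in the same order, and only Hmgcs1 with BDNF at 12 h lost its call (-0.14, limma adjusted p = 0.0583). Of 24 arrays, 11 correlated best with their own number.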
